A study of Mus musculus with 2 samples.

Results

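The genes described here make, load, take up and recycle the fast transmitters glutamate and GABA. They are 9 named genes, found by symbol in both count tables, of 32531 gene symbols in all. Slc17a7 and Slc17a6 encode the vesicular glutamate transporters VGLUT1 and VGLUT2. Slc1a1, Slc1a2 and Slc1a3 encode glutamate uptake carriers of the plasma membrane, and Glul encodes glutamine synthetase. Gad1 and Gad2 encode the glutamate decarboxylases GAD67 and GAD65, which make GABA, and Slc32a1 encodes the transporter that loads GABA into vesicles.

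The data are 2 libraries of RNA bound to ribosomes in the dentate gyrus of untreated adult mice from line OI82, a Lypd1-TRAP line. The line carries Lypd1-EGFP/Rpl10a, a ribosomal protein tagged with EGFP and expressed from Lypd1 regulatory sequence, and both libraries were immunopurified through the tag. Sex, exact age, pooling and whether the replicates came from separate animals were not stated in the labels, so the spread between the libraries may be partly technical. No input RNA or untagged control was analysed here, so each value is a level within the purified RNA and not an enrichment over the tissue.

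In the usual scheme of these pathways, excitatory terminals load glutamate into vesicles with a vesicular transporter. Released glutamate is cleared mainly by astrocytes, which turn it into glutamine with glutamine synthetase and return it to neurons, where it is turned back into glutamate. Inhibitory terminals decarboxylate glutamate to GABA and load it through the vesicular GABA transporter. Dentate granule cells are glutamatergic, and their mossy fibres are known to contain GABA and GAD67 as well.

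Each level is a count per 1000000 gene-line counts (CPM), from 31309643 such counts in replicate 1 and 32711412 in replicate 2. Levels of different genes are compared per kilobase of annotated exon (CPM per kb). Ratios of replicate 2 to replicate 1 are on the log2 scale after TMM scaling, a method that scales libraries on the bulk of their genes, and carry exact 95% counting intervals. The design has 1 group, so nothing was tested between conditions and no p-value is given. All 9 genes had counts in both libraries, as did 51.4% of all symbols, and 8 reached 1 CPM in both, where 38.1% of all symbols did. Granule cell markers were present throughout, with 10 of 10 detected and a summed level of 4118 CPM in replicate 1 and 4173 CPM in replicate 2. The detected shares of the other marker lists were 11 of 12 for astrocytes, 2 of 11 for interneurons, 3 of 5 for hilar mossy cells, 6 of 7 for CA1 pyramidal cells, 3 of 5 for Cajal-Retzius cells, 2 of 5 for immature neurons, 6 of 8 for oligodendrocytes, 0 of 5 for microglia, 2 of 3 for endothelial cells and 2 of 3 for thalamic neurons. The markers at 0 counts in both libraries were C1qa and C1qb of microglia and Eomes and Igfbpl1 of immature neurons.

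The 9 genes are protein-coding and lie on 5 chromosomes of GRCm38, with Slc1a2, Gad1, Gad2 and Slc32a1 on chromosome 2. Windows before a RefSeq start are shown for 3 genes because Slc17a7, Gad1 and Gad2 had the largest differences between the libraries among the genes above 1 CPM. Each window is the 250 bases before a start that RefSeq annotates (GRCm38.p6), and the part before the first GENCODE exon within it is printed 5′ to 3′. The printed parts lie at chr7:45163671-45163920, chr2:70561879-70562041 and chr2:22622077-22622204, on the plus strand. The Gad1 window lies inside the GENCODE gene, whose first base is 70553072, because the RefSeq start used is a later one. Capitals mark matches to a GC box (GGGCGG) or a TATA box (TATAAA) on either strand.
Slc17a7: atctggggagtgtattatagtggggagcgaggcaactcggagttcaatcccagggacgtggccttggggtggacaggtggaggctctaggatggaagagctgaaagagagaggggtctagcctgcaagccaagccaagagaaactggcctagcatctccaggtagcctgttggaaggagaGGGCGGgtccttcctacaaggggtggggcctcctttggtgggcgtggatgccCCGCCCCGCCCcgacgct
Gad1: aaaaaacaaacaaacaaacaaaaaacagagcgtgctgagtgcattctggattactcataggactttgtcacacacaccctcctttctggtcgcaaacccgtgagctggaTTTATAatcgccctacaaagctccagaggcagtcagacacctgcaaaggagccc
Gad2: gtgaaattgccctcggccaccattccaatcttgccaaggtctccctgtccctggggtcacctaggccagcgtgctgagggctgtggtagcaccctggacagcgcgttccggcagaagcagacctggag
The Slc17a7 window held 3 GC box matches, of which the last 2 share a base, and the Gad1 window held 1 TATA box match on the opposite strand and 1 GC box match beyond the printed part. The whole Gad2 window held neither. Over the members, 6 of 9 genes had a GC box match and 2 of 9 a TATA box match in a window of this kind. Of all 32536 such windows, 33.0% and 12.3% did. The members are counted by gene and the background by window, and the 9 genes had 10 windows. No member window matched the EGR motif GCGNGGGCG (4.74% of all windows) or the cyclic AMP response element TGACGTCA (1.56% of all windows). The GC content was 61.2% for Slc17a7, 58% for Gad1 and 64% for Gad2, against a median of 52.4% over all windows. These matches describe letters in the windows only.

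Slc17a7 was the most abundant of the 9 genes per kilobase, and the other vesicular glutamate transporter genes were far lower. Slc17a7 (chromosome 7, 45163949 to 45176142, plus strand) was counted at 437 CPM in replicate 1 against 241 CPM in replicate 2. Slc17a6 (chromosome 7, 51622006 to 51671119, plus strand) was at 3.23 CPM (95% interval 2.63 to 3.92) and 3.70 CPM (3.07 to 4.42). The third family member, Slc17a8, which encodes VGLUT3, had 0 counts in replicate 1 and 1 count in replicate 2. Replicate 1 therefore held the higher Slc17a7 level, while the intervals of Slc17a6 overlapped.

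Per kilobase of exon, Slc17a7 stood at 81.0 CPM per kb in replicate 1 and 44.8 CPM per kb in replicate 2, percentiles 97.5 and 94.2 of the 14556 genes with a count in both libraries and an annotated length. Slc17a6 stood at 0.597 and 0.685 CPM per kb, percentiles 24.4 and 28.0. The level of Slc17a7 per kilobase was 136 times that of Slc17a6 in replicate 1 and 65.3 times in replicate 2. Slc17a7 lay among the granule cell markers, above 6 of the 10 and below Prox1 and Stxbp6 in both libraries. Slc17a6 lay below all 10 of them and below Calb2 and Ajap1 of the 5 mossy cell markers. Markers of other glutamatergic cells were present. The mossy cell list summed to 57.6 CPM and 34.9 CPM, with Ajap1 at 50.8 and 32.0 CPM, Calb2 at 3.55 and 1.44 CPM and Drd2 at 0.256 and 0.336 CPM. The Cajal-Retzius list summed to 59.9 CPM and 89.1 CPM, led by Reln (28.6 and 49.5 CPM) and Ndnf (23.0 and 26.1 CPM). That list was higher in replicate 2 and the mossy cell list lower, while the Slc17a6 intervals overlapped. The thalamic list summed to 7.35 CPM and 9.72 CPM. Their part in the Slc17a6 counts was not tested.

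**Figure D1:**
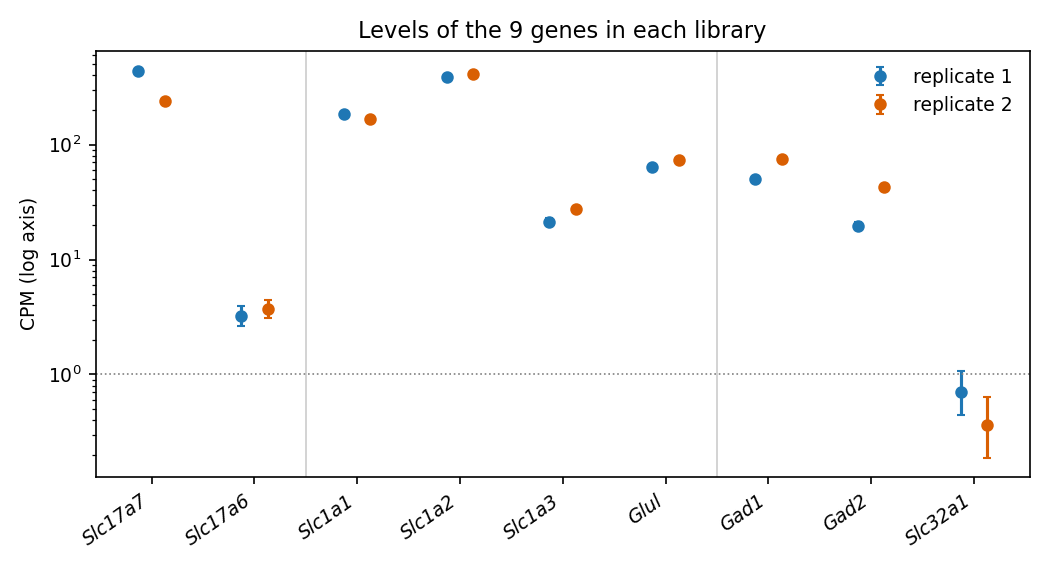
Level of each gene in CPM (log axis) in replicate 1 (blue) and replicate 2 (orange), grouped by role from vesicular glutamate transport through uptake and glutamine synthesis to GABA. Bars are exact 95% intervals for counting error and the dotted line is 1 CPM, which Slc32a1 did not reach in either library (0.703 and 0.367 CPM).

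Among the glutamate uptake carriers, Slc1a2 and Slc1a1 were high and Slc1a3 was low. Slc1a2 encodes GLT-1, the main astrocytic glutamate transporter of the forebrain, and lies on chromosome 2 (102658659 to 102790784, plus strand). It was at 389 CPM in replicate 1 against 413 CPM in replicate 2, so the libraries lay close together. Slc1a1 encodes EAAC1, the carrier of neuronal cell bodies and dendrites (chromosome 19, 28835049 to 28913960, plus strand), and was at 184 and 166 CPM. Slc1a3 encodes GLAST, a carrier of astrocytes and radial glia (chromosome 15, 8634124 to 8710764, minus strand), and was at 21.4 and 27.6 CPM.

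Per kilobase, Slc1a2 reached 30.5 ± 1.24 CPM per kb (SD, n = 2), Slc1a1 21.2 ± 1.56 CPM per kb and Slc1a3 2.87 ± 0.511 CPM per kb. Slc1a2 was 11.8 times Slc1a3 in replicate 1 and 9.72 times in replicate 2, and 6.34 times on average with the longest transcript as the length. The order of Slc1a2 and Slc1a1 depended on the gene length used. Their ratio was 1.45 ± 0.165 (SD, n = 2) with all exons merged, 0.754 with the longest transcript and 1.0 when exon bases shared with another gene were left out of the length. The gene 4430402I18Rik, on the opposite strand, covers 2631 of the 8257 exon bases of Slc1a1 and was itself counted at 419 and 221 counts. The counting's strand setting is not given in the sources used here, so reads from such shared bases cannot be assigned. Leaving them out of the length keeps all counts of the gene, and gives too high a level if reads from the shared bases were counted.

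Glul (chromosome 1, 153899944 to 153909723, plus strand), whose enzyme is concentrated in astrocytes and also found in oligodendrocytes, was at 63.3 CPM in replicate 1 against 73.7 CPM in replicate 2. Per kilobase it reached 20.6 ± 2.21 CPM per kb (SD, n = 2), a value whose range overlapped that of Slc1a1. Slc1a2 was 1.56 times Glul in replicate 1 and 1.42 times in replicate 2.

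The 3 genes that are known mainly from astrocytes did not sit together beside astrocyte markers. Slc1a2 and Glul each stood above 11 of the 12 astrocyte markers per kilobase in both libraries, with Slc4a4 (33.2 and 33.3 CPM per kb) above both. Slc1a3 stood above 7 of the 12 and below Slc4a4, Aldoc, Sox9 and Ntsr2. The astrocyte list summed to 452 CPM in replicate 1 and 482 CPM in replicate 2. Slc4a4, a bicarbonate cotransporter gene, gave 359 and 361 CPM of these sums, and the other 11 markers summed to 92.1 and 122 CPM. The aldolase gene Aldoc was at 26.4 and 30.9 CPM, the water channel gene Aqp4 was at 16.8 and 14.3 CPM, the filament gene Gfap had 222 and 392 counts, and Aldh1l1 was at 0.958 and 0.887 CPM. No astrocyte marker was at 0 counts. For oligodendrocytes the summed level was 191 and 145 CPM, led by Mbp at 126 and 99.3 CPM. The part of either cell type in the levels of Slc1a2, Slc1a3 and Glul was not tested.

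**Figure D2:**
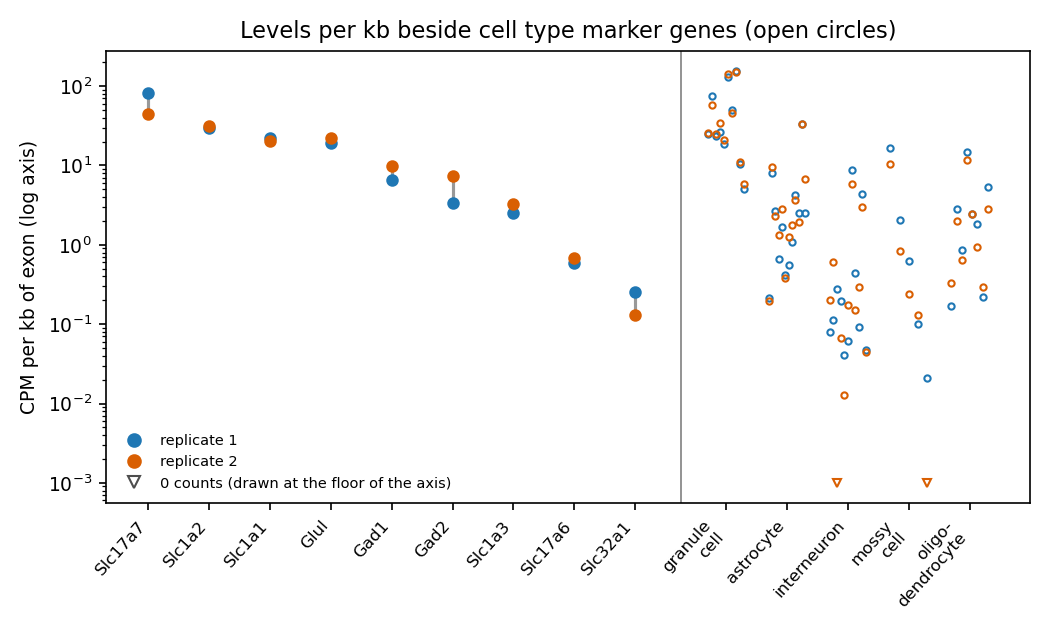
Level per kilobase of exon (log axis) of the 9 genes in descending order (filled circles, both libraries joined by a line) and of single marker genes of 5 cell types (open circles, triangles for 0 counts). Gad1 and Gad2 lie above most interneuron markers, whereas Slc32a1, at 0.251 and 0.131 CPM per kb, lies among them.

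The GABA genes were split between synthesis and vesicular loading. Gad1 (chromosome 2, 70553072 to 70602014, plus strand) reached 50.0 CPM in replicate 1 against 75.6 CPM in replicate 2. Gad2 (chromosome 2, 22622205 to 22693874, plus strand) was at 19.7 and 42.8 CPM. Both decarboxylase genes were higher in replicate 2. Slc32a1 (chromosome 2, 158610767 to 158615748, plus strand) had 22 counts in replicate 1 and 12 in replicate 2. These correspond to 0.703 CPM (95% interval 0.440 to 1.06) and 0.367 CPM (0.190 to 0.641), so the libraries did not differ beyond counting error.

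Per kilobase, Gad1 was at 6.55 and 9.89 CPM per kb, Gad2 at 3.35 and 7.29 CPM per kb and Slc32a1 at 0.251 and 0.131 CPM per kb. The level of Gad1 was 26.1 times that of Slc32a1 in replicate 1 and 75.4 times in replicate 2. The average was 50.7 ± 34.9 (SD, n = 2). It was 107.6 with the longest transcript and 38.1 with exon bases shared with another gene left out of the length. The 22 and 12 counts of Slc32a1 limit the precision of this ratio. An annotated antisense gene, Gm14205, covers 697 of the 2797 exon bases of Slc32a1. It was not found under this symbol in the tables, and reads of it counted without regard to strand could not be told apart from those of Slc32a1. Gad1 exceeded Gad2 by 1.96 times in replicate 1 and 1.36 times in replicate 2, and the ranges of both genes overlapped. With the longest transcript this ratio averaged 3.43. Gad1 has 8 annotated transcripts, 5 of them protein-coding, and the gene-level counts do not separate full-length from truncated GAD67 forms.

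Interneuron markers stood lower than the decarboxylases in most cases. Gad1 was above 10 of the 11 interneuron markers in both libraries and Gad2 above 9 of the 11, while Slc32a1 was above 3 and below Sst, Lhx6 and Lamp5. The list summed to 34.0 CPM in replicate 1 and 25.2 CPM in replicate 2. Lamp5 made up most of it, at 26.0 and 17.2 CPM, followed by the somatostatin gene Sst at 3.16 and 2.17 CPM. Pvalb, the parvalbumin gene, had 3 and 10 counts, Vip had 5 in each library, and Dlx2 had 25 and 0. No interneuron marker was at 0 counts in both libraries. The 4 interneuron markers with a mean of at least 1 CPM had a median log2 ratio of -0.47, with 1 above 0 and 3 below. The summed list was thus lower in replicate 2, where Gad1 and Gad2 were higher, and the part of interneurons in the decarboxylase counts was not tested.

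In descending order of level per kilobase the genes were Slc17a7, Slc1a2, Slc1a1, Glul, Gad1, Gad2, Slc1a3, Slc17a6 and Slc32a1. Of the 8 neighbouring pairs in this order, 6 had library ranges that did not overlap. The exceptions were Slc1a1 with Glul and Gad1 with Gad2. With the longest transcript as the length, Slc1a1 moved ahead of Slc1a2 and Slc1a3 ahead of Gad2. The level of Slc17a7 was 12.4 times Gad1 in replicate 1 against 4.53 times in replicate 2. This ratio does not depend on how the libraries are scaled.

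Between the libraries, Slc17a7 and the decarboxylases lay on opposite sides of 0. Slc17a7 was lower in replicate 2 (log2 ratio -0.76, 95% counting interval -0.80 to -0.72, or 1.70-fold). Gad1 was higher in replicate 2 by 0.69 (0.60 to 0.78), or 1.61-fold, and Gad2 by 1.21 (1.08 to 1.35), or 2.32-fold. Of the 8 members with a mean of at least 1 CPM, 1 was at least 2-fold higher in replicate 2, where 4.51% of all 13089 such genes were, and 0 were 2-fold lower (5.75% of genes). At 1.5-fold, 2 of 8 were higher (12.6% of genes) and 1 of 8 lower (14.3% of genes). Of all genes past 1.5-fold, 46.7% were higher in replicate 2, against 34.7% with library totals in place of TMM. Without Rn45s and Lars2 in the totals Gad1 was at 0.57, just under 1.5-fold. With 8 members, counts this small are not a result about the group.

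The spread between the libraries narrowed with level, and Slc17a7 is among the abundant genes. Of 2214 genes with a mean of at least 100 CPM, 54 were at least 1.5-fold higher in replicate 1 (2.44%), Slc17a7 among them. Of 8442 genes with a mean of at least 10 CPM, 184 were at least 2-fold higher in replicate 2 (2.18%), Gad2 among them. The class of at least 100 CPM was chosen after the values were seen. The counting intervals leave out variation between preparations, so these ratios compare 2 libraries and not conditions.

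The other members differed less. The log2 ratio was 0.18 for Slc1a2, -0.06 for Slc1a1, 0.46 for Slc1a3 (0.31 to 0.60), 0.31 for Glul and 0.29 for Slc17a6 (-0.10 to 0.69). Slc32a1, below 1 CPM, was at -0.75 with an interval from -1.99 to 0.23. Over the 8 members the median was 0.30, with 6 above 0, against a median of -0.01 and 49.2% above 0 over all 13089 genes. The astrocyte markers had a median of 0.32 over 11 genes, with 7 above 0, beside the values of 0.46 for Slc1a3, 0.31 for Glul and 0.18 for Slc1a2. Slc6a11 (-1.24) and Slc38a3 (-0.18), further carrier genes known mainly from astrocytes, lay below 0. The oligodendrocyte markers, the other list set beside Glul, had a median of -0.38 over 6 genes, with 1 above 0. The astrocyte markers past 2-fold were Sox9 (10.4 and 27.8 CPM), Gjb6 (log2 ratio 1.21) and Fgfr3 (4.79 and 9.45 CPM), each higher in replicate 2. The granule cell markers had a median of 0.18 over 10 genes, with none past 1.5-fold, beside -0.76 for Slc17a7. The CA1 pyramidal markers, from cells that also use VGLUT1, were lower in replicate 2 in 6 of the 6 genes with a mean of at least 1 CPM, with a median of -0.63. The seventh, Map3k15, had 18 and 38 counts, and all 7 summed to 133 CPM and 93.6 CPM. Mossy cell markers were also lower in replicate 2, with a median of -1.18 over 3 genes, 0 of them above 0. Medians lay above 0 for Cajal-Retzius (0.61), endothelial (0.21) and thalamic markers (0.39), each over 3 genes. All 3 Cajal-Retzius genes were above 0, but only 2 of 3 in each other list. Cldn5 of the endothelial list (-0.88) and Lef1 of the thalamic list (-1.12) lay below 0. For immature neurons the median was 1.11 over 2 genes that lay on opposite sides of 0, Sox11 at 2.39 and Dcx at -0.16. Neurod4 of the same list, below 1 CPM, had 22 and 0 counts. The part of any of these cells in the Slc17a7 difference was not tested.

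**Figure D3:**
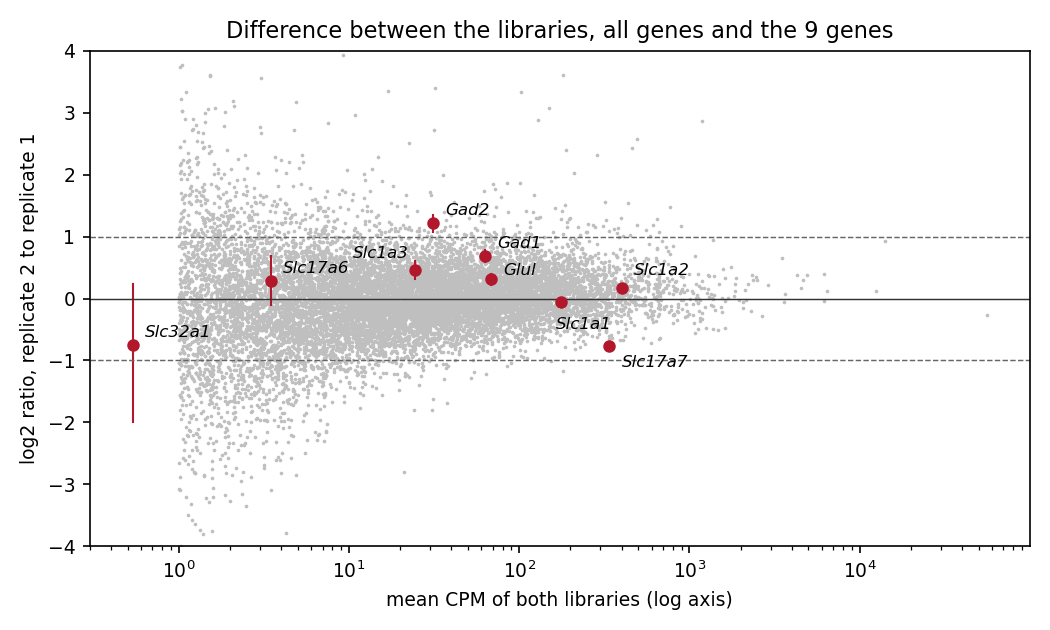
Log2 ratio of replicate 2 to replicate 1 against mean CPM (log axis) for all 13089 genes with a mean of at least 1 CPM (grey) and the 9 genes (red, with exact 95% counting intervals). The dashed lines mark 2-fold, which Gad2 alone of the 9 passes, and 24 genes beyond a log2 ratio of 4 in either direction are outside the plotted range.

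From 20 further genes of glutamate and GABA supply, uptake and breakdown, 15 were detected, where 38.1% of all symbols were. All 7 enzymes and carriers of glutamate supply were among them, at widely different levels. Got1, the cytosolic aspartate aminotransferase gene, was at 336 CPM in replicate 1 against 349 CPM in replicate 2 and was the highest of these and the 9 members per kilobase of exon, at 135 ± 3.40 CPM per kb (SD, n = 2). Glud1, the glutamate dehydrogenase gene, was at 155 and 173 CPM, and Slc25a12, which encodes a mitochondrial aspartate-glutamate carrier, at 152 and 129 CPM. Per kilobase, Glud1 (38.9 ± 2.97 CPM per kb, SD, n = 2) came after Slc17a7 and ahead of Slc1a2. Lower genes of this list were Got2 (24.8 and 25.3 CPM), Gls2 (5.17 and 4.59 CPM) and Pcx (1.05 and 3.24 CPM).

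All 4 glutamine carrier genes of the list were detected. Slc38a1 (62.0 and 81.4 CPM) and Slc38a2 (59.7 and 62.1 CPM) encode sodium-coupled carriers that neurons use to take up glutamine. Slc38a5 was at 2.04 and 3.15 CPM. Slc38a3, known as the glutamine carrier of astrocytes, was at 2.49 and 2.05 CPM. Per kilobase, the lower of the first pair, Slc38a1 at 4.16 ± 0.795 CPM per kb (SD, n = 2), was above Slc38a5 at 1.16 ± 0.349 CPM per kb and Slc38a3 at 0.430 ± 0.0594 CPM per kb. Among further uptake genes, the cystine-glutamate exchanger gene Slc7a11 was at 5.94 and 4.19 CPM, Slc1a6 had 26 and 13 counts, and Slc1a7 had 0 and 1.

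Genes of GABA uptake and breakdown were present beside the decarboxylases. Slc6a11, which encodes the mostly astrocytic uptake carrier GAT-3, was at 16.1 CPM in replicate 1 against 6.36 CPM in replicate 2, and Slc6a12 and Slc6a13 had 12 and 3 counts in replicate 1 and 0 in replicate 2. The 0 counts allow up to 0.0917 CPM. Abat, the GABA transaminase gene, was at 11.6 and 12.1 CPM, and Aldh5a1, whose enzyme completes GABA breakdown to succinate, at 88.8 and 72.0 CPM. Slc6a11 was lower in replicate 2 (log2 ratio -1.24), where Gad1 and Gad2 were higher.

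Of the 15 further genes with a mean of at least 1 CPM, 8 had log2 ratios above 0, where 49.2% of all genes did, and the median was 0.12 against -0.01. Past 2-fold lay 1 gene in each direction (4.51% of all genes towards replicate 2 and 5.75% towards replicate 1). These were Slc6a11 and, towards replicate 2, the pyruvate carboxylase gene Pcx (33 and 106 counts, log2 ratio 1.65, interval 1.14 to 2.32). At 1.5-fold, 2 of 15 were higher in replicate 2 (12.6% of all genes) and 2 of 15 in replicate 1 (14.3%). The second gene in the latter direction was Slc25a22, the gene of a mitochondrial glutamate carrier, at 73.5 and 37.4 CPM (-0.88). The ratios of both leading enzymes of glutamate supply lay near 0, with 0.14 for Got1 and 0.25 for Glud1.

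**Figure D4:**
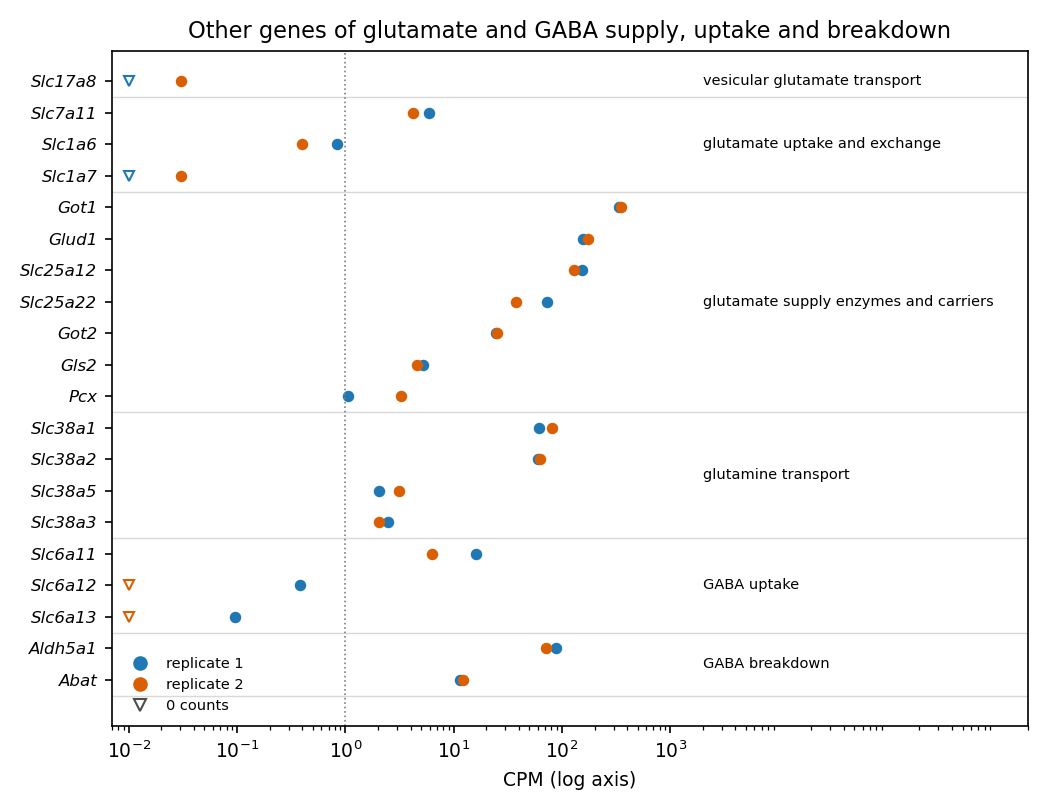
Level in CPM (log axis) of the 20 further pathway genes in replicate 1 (blue) and replicate 2 (orange), grouped by role, with triangles for 0 counts and a dotted line at 1 CPM. Got1 lies highest and near-equal in both libraries, and Slc6a11 (16.1 and 6.36 CPM) and Slc25a22 (73.5 and 37.4 CPM) show wide gaps between the libraries.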

How the data were processed

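The deposited files hold counts per gene symbol, not normalised by the authors, for 2 libraries of 1 group. The aligner STAR 2.0.0e, the counter HTSeq and build mm10 are named, per the submitters' processing notes. Which annotation and strand setting were used is not given in the sources used here. Lines that name no gene stayed out of the totals, which left 65.0% and 64.9% of all counts. CPM was computed from gene-line totals of 31309643 and 32711412. Exon lengths came from GENCODE M21 (GRCm38) with all exons of a gene merged, for 23161 of 32531 symbols. That annotation may differ from the one used for counting. Log2 ratios used TMM totals from edgeR 4.0.16 and a prior count of 2, and the comparison took genes averaging at least 1 CPM. Intervals are exact (Clopper-Pearson) at 95% and cover counting error only. Reads without molecular identifiers are not independent molecules, so the intervals may be too narrow even for counting error. Apart from these intervals, a count of 0 was taken to allow 3 counts. The ratio calculation was tested on simulated data whose spread was set in advance and not taken from these libraries. That test checks the calculation only.

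Alternatives were library totals, DESeq2 1.42.0 size factors, totals without Rn45s and Lars2, a prior count of 0.5, other gene lengths and other filters. Members and lists were chosen with earlier results of these data known. The rule names all 9 members, the 3 highest genes of each pathway list and any past 2-fold, and the highest 2 genes of a marker list and any at 0 counts. Marker genes are named where a member is set beside them. Genes outside it, such as Got2, Gls2, Slc38a3, Slc25a22, Aqp4, Gfap, Aldh1l1, Drd2, Map3k15, Sox9, Gjb6 and Fgfr3, were named after their values were seen, as was the GC box. Pc was found under its symbol Pcx in these tables. Some genes first placed on the pathway lists are not reported here and stayed out of all list counts.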

Additional observations from a re-analysis of the deposited data

How the results depend on the processing

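No paired analysis was possible because there is 1 group of 2 libraries. With the longest transcript as gene length, Gad1 to Slc32a1 became 107.6, Gad1 to Gad2 3.43, Slc1a2 to Slc1a3 6.34 and Slc1a2 to Slc1a1 0.754, the last reversed. With the longest protein-coding transcript the same ratios were 115.5, 3.69, 5.95 and 0.754. With shared exon bases left out of the length Slc1a2 to Slc1a1 was 1.0 and Gad1 to Slc32a1 38.1. The protein-coding transcript lengths and the length without shared bases were chosen after the data were seen. Under these lengths Slc17a7 to Slc17a6, Slc17a7 to Gad1 and Slc1a2 to Glul moved by less than the spread between the libraries.

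Genes past 2-fold numbered 590 towards replicate 2 and 752 towards replicate 1. They numbered 2331 and 2148 over every gene with a count and 184 and 85 at a mean of at least 10 CPM. At 1.5-fold the 1645 and 1876 became 4147 and 3831, then 797 and 601. With library totals they were 1259 and 2373, so the share towards replicate 2 was 34.7% in place of 46.7%. Library totals moved the median log2 ratio of all genes to -0.10, and totals without Rn45s and Lars2 to -0.12. No member's ratio changed sign under the 4 other settings, but Gad1 was at 0.57 with the latter totals, just under 1.5-fold. Of the values for single genes and lists under another setting, 62 moved by less than the spread or counting interval and 18 by more. The 62 include the member levels with 1 library left out, which cannot shift beyond the SD of the same 2 values. Those levels therefore show nothing about stability.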
